A study of Rattus norvegicus with 12 samples.

Results

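The 6 NMDA receptor subunit genes Grin1, Grin2a, Grin2b, Grin2c, Grin2d and Grin3a were taken by gene symbol from a table of 17494 genes counted in RNA from the brains of 12 rats. All 6 were found and all 6 passed the filter on low counts. The rats were male Long Evans rats of genotype WT, and all 12 were exposed to 3 blasts over 3 days at 10 weeks of age and sacrificed 29 weeks later. The chow of 6 rats held boldine at 500 mg/kg from week 2 after blast on (blast-boldine), and the other 6 had that chow without boldine (blast-control). Boldine is a plant alkaloid. The sample labels give the tissue as brain and the study's methods give it as hippocampus. No library came from a rat without blast exposure, so the comparison asks how boldine-fed and control rats differed after blast and says nothing of blast itself.

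NMDA receptors are cation channels that combine obligatory GluN1 subunits, encoded by Grin1, with GluN2 or GluN3 subunits. GluN2 subunits (Grin2a to Grin2d) bind glutamate and set channel kinetics, and GluN3 subunits (Grin3a and Grin3b) bind glycine. Receptors of GluN1 and GluN2 open only when glutamate and a co-agonist, glycine or D-serine, are bound and the membrane is depolarized. In the hippocampus NMDA receptors are known for their part in synaptic plasticity. GluN2A and GluN2B are the main GluN2 subunits of its pyramidal and granule neurons. The study also blotted the GluN2B protein in hippocampus, and here only RNA was measured.

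Counts on genes summed to between 10148474 and 40850106 in 11 rats and to 74008 in blast-control rat 6. Values are therefore given with and without rat 6. Levels are given as CPM, a gene's counts relative to the TMM-scaled total of its library. The library names carry suffixes that each occur on a pair of libraries, as separate sample sheets would give. On the assumption that rat numbers rise with the suffix within a sheet, the blast-boldine rats divide into rats 12, 17 and 19 and rats 20, 32 and 35. The suffixes and that order left 4 ways to assign all 12 rats, and the way used was chosen by the first principal component. The resulting library sets, A (rats 1, 7, 9, 20, 32 and 35) and B (rats 4, 5, 6, 12, 17 and 19), accounted for 95.1% of that component and treatment for 1.53%. The tissue was checked with marker lists. The 5 markers of pyramidal and granule neurons were all detected, with a summed level of 1450 to 2200 CPM over the 12 rats. In the 11 deeper libraries, 4 markers of cortex summed to 126 to 197 CPM and 4 of choroid plexus to 8.23 to 1170 CPM. The part of these tissues in the samples was not tested. Among 4 markers of cerebellar granule neurons, Gabra6, Cbln3 and Barhl1 reached at most 0.724, 0.717 and 0.296 CPM in the 11 deeper libraries, and Etv1, which other neurons express too, lay between 103 and 205 CPM.

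Grin1 encodes the subunit that every NMDA receptor needs. In mRatBN7.2 its exons lie on chromosome 3 from 8103680 to 8130603, on the minus strand, and the file gives them an exonic length of 4343 bases. No exon of the 6 members overlapped an exon of another gene on the same strand. RefSeq promoter windows were at hand for 4 of the 6 members (Grin1, Grin2c, Grin2d and Grin3a). Those of Grin1 and Grin2c are shown because both genes separated the library sets of the blast-boldine rats, in opposite directions, as described further on. Each window holds 300 bases read 5′ to 3′ on the minus strand of build GRCr8, at chr3:28528705-28529004 for Grin1 and chr10:101005089-101005388 for Grin2c. Capitals mark matches, on either strand, to the GC box GGGCGG, the Egr motif GCGGGGGCG or the cAMP response element TGACGTCA.
Grin1: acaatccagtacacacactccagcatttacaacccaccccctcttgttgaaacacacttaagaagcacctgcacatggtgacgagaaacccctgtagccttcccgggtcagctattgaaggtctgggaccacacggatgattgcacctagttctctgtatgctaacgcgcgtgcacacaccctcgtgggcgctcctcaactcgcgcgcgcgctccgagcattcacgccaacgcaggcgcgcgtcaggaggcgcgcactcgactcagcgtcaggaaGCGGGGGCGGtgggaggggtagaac
Grin2c: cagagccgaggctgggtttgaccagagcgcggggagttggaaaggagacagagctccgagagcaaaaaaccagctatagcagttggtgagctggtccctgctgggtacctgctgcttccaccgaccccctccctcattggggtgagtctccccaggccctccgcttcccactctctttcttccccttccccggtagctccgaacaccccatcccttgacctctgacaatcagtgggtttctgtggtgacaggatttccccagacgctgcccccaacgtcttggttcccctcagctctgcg
The Grin1 window held 1 GC box and 1 Egr motif, which overlap each other, and the windows of Grin2c, Grin2d and Grin3a held no match to any of the 3 motifs. Over 33469 promoter windows of this length, 33.1% held the GC box, 2.73% the Egr motif and 1.83% the cAMP response element. These letters describe the windows and were not tested against the counts. The GC content was 59.7% for Grin1 and 60.3% for Grin2c, against a median of 51.7% over all windows, and Grin1 held 25 CpG dinucleotides against 11 in Grin2c.

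The Grin1 level in blast-boldine rats ranged from 435 to 668 CPM with a median of 561 CPM, and in blast-control rats from 380 to 874 CPM with a median of 476 CPM. The highest value was that of control rat 4 and the lowest that of rat 6, which rested on 24 counts (95% exact Poisson interval 244 to 566 CPM, counting error only). All boldine values lay inside the range of the controls. The means were 561 ± 104 CPM (SD, n = 6) and 535 ± 177 CPM (SD, n = 6). The log2 fold change of Grin1, blast-boldine over blast-control, was 0.05 with a standard error (SE) of 0.20 (adjusted p = 1.0 by the quasi-likelihood test of edgeR, adjusted over all genes tested after Benjamini and Hochberg). Without rat 6 it was -0.01, so the sign rested on that shallow library.

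Grin2a encodes GluN2A, the GluN2 subunit that rises in forebrain synapses as they mature. It lies on chromosome 10 from 5630684 to 6043341, on the plus strand. Its level in blast-boldine rats ranged from 451 to 691 CPM with a median of 567 CPM, and in blast-control rats from 472 to 770 CPM with a median of 553 CPM. The groups overlapped over most of their range. The log2 fold change of Grin2a was -0.06 (SE 0.17), with a 95% interval from -0.43 to 0.31 and an adjusted p of 1.0 by edgeR's quasi-likelihood test. Without rat 6 the means were 565 ± 99.2 CPM (SD, n = 6) and 566 ± 124 CPM (SD, n = 5).

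Grin2b encodes GluN2B, which dominates in the young forebrain and stays abundant in the adult hippocampus. It lies on chromosome 4 from 168599546 to 169042279, on the minus strand. Its level ranged from 487 to 710 CPM in blast-boldine rats, with a median of 616 CPM, and from 428 to 823 CPM in blast-control rats, with a median of 561 CPM. Within the boldine group the values formed separate clusters, with 707, 710 and 707 CPM in rats 12, 17 and 19 and 487, 502 and 526 CPM in rats 20, 32 and 35. The controls spanned both clusters, from rat 1 at 428 CPM to rat 4 at 823 CPM. The log2 fold change of Grin2b was 0.01 (SE 0.19, unadjusted p = 0.974 and adjusted p = 1.0, edgeR's quasi-likelihood test). Its 95% interval ran from -0.40 to 0.41, which is a level in boldine rats between 0.758 and 1.33 times that in controls. With a term for the library set and no rat 6, the interval of Grin2b narrowed to between 0.898 and 1.15 times the control level. The sets were chosen from these same counts, so that interval may be too narrow. In an exact permutation test over all assignments of the rats to the groups, the mean log2 CPM of Grin2b differed by 0.01 (two-sided p = 0.939). Without rat 6, at 776 CPM from 49 counts, the control median was 517 CPM and the difference in mean log2 CPM 0.09 (exact permutation p = 0.63). The log2 fold change of Grin2b was then 0.07 (SE 0.18, unadjusted p = 0.698, edgeR's quasi-likelihood test).

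**Figure D1:**
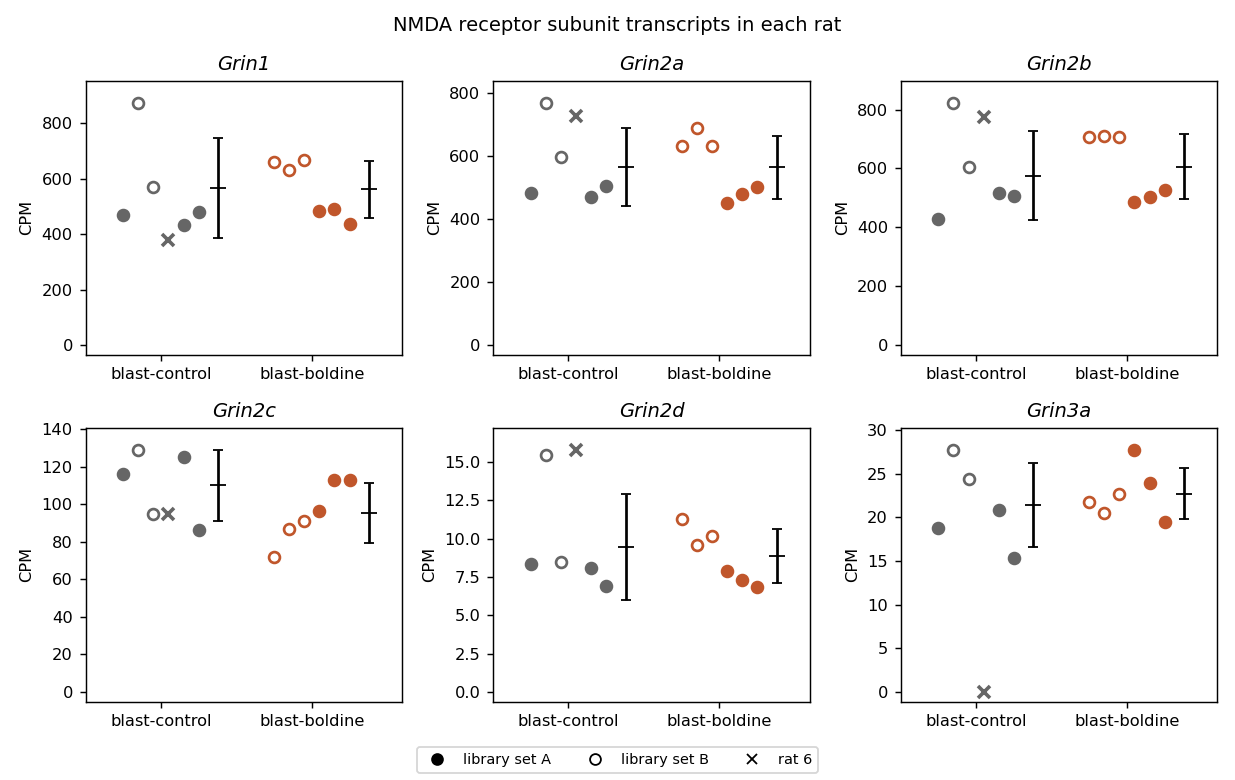
Levels of the 6 subunit transcripts in CPM (vertical axis, which includes 0) in each blast-control and blast-boldine rat. Filled circles are library set A, open circles set B and the cross is rat 6, and the black mark and bar give the mean ± SD without rat 6. Grin2b fell at 707 to 710 CPM in the boldine rats of set B and at 487 to 526 CPM in those of set A, and for every subunit the groups overlapped.

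Grin2c encodes GluN2C, known from cerebellar granule cells and from astrocytes of the forebrain. It lies on chromosome 10 from 100488551 to 100506156, on the minus strand. Its level ranged from 71.9 to 113 CPM in blast-boldine rats, with a median of 93.7 CPM, and from 86.1 to 129 CPM in blast-control rats, with a median of 106 CPM. The highest 3 values, in rats 4, 7 and 1, were all from controls, and the lowest was from boldine rat 12. The means were 95.4 ± 15.9 CPM and 108 ± 18 CPM (SD, n = 6 each). The log2 fold change of Grin2c was -0.20 (SE 0.15), with an unadjusted p of 0.220, the smallest among the members, and an adjusted p of 1.0 (edgeR's quasi-likelihood test). The exact permutation test of Grin2c gave p = 0.225. Without rat 6 the log2 fold change was -0.21 (SE 0.15, unadjusted p = 0.174, edgeR's quasi-likelihood test). Grin2c was lower in boldine rats in all 25 other settings of the fit, and the smallest unadjusted p among them was 0.114 (edgeR, without rat 9). These settings refit the same libraries, so an unchanged sign adds no separate evidence. Beside it, the summed level of 6 astrocyte markers ran from 3740 to 4990 CPM in boldine rats and from 3970 to 5320 CPM in controls, and the part of these cells in the difference was not tested. In RNA from whole tissue, fewer cells of a type and less RNA per cell cannot be told apart.

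Grin2d encodes GluN2D, which in the adult forebrain is known mainly from interneurons. It lies on chromosome 1 from 96308365 to 96344793, on the minus strand. Its level ranged from 6.87 to 11.3 CPM in blast-boldine rats, with a median of 8.76 CPM, and from 6.92 to 15.8 CPM in blast-control rats, with a median of 8.42 CPM. The value of 15.8 CPM was that of rat 6 and rested on a single count. The next highest was 15.5 CPM in rat 4, from 157 counts, and no other rat passed 11.3 CPM. The log2 fold change of Grin2d was -0.11 (SE 0.22, adjusted p = 1.0, edgeR's quasi-likelihood test). It was -0.09 without rat 6 and 0.13 without rat 4. The summed level of 6 interneuron markers was 419 to 576 CPM in boldine rats and 404 to 573 CPM in controls without rat 6.

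Grin3a encodes GluN3A, a glycine-binding subunit that lowers calcium entry through the receptor and is high in early postnatal life. It lies on chromosome 5 from 64009980 to 64206085, on the minus strand. Its level ranged from 19.5 to 27.7 CPM in blast-boldine rats, with a median of 22.2 CPM, and from 15.3 to 27.7 CPM in the 5 deeper control libraries, with a median of 20.8 CPM. Rat 6 had 0 counts of Grin3a among 74008, which allows up to 47.5 CPM (3 counts), above the level in every other rat. That library therefore could not show whether Grin3a was present. The log2 fold change of Grin3a was 0.12 (SE 0.20) with all rats and 0.08 (SE 0.16) without rat 6, both with an adjusted p of 1.0 by edgeR's quasi-likelihood test. The difference in mean log2 CPM of Grin3a was 1.35 with rat 6, a value that depends on the prior count given to its 0, and 0.10 without it (exact permutation p = 0.264 and 0.522). Grin3b, the gene of the other GluN3 subunit, had between 0 and 8 counts per library and did not pass the filter, so it was not tested.

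None of the 6 members reached an adjusted p of 0.05 by edgeR, by DESeq2 or by limma-voom, and none had an unadjusted p below 0.05 by any of the 3 tools. Over all 12325 genes tested by edgeR, 132 (1.07%) had an unadjusted p below 0.05 and 0 (0%) an adjusted p below 0.05, so a count of 0 among 6 members lies close to the background. Without rat 6 no member had an unadjusted p below 0.05, against 1.40% of 12529 genes. With the library set as a covariate the count of members was again 0, against 3.85% of genes with all rats and 5.35% without rat 6. The treatment groups overlapped for all 6 members, and they did not overlap for only 0.0811% of genes with all rats and 0.136% without rat 6. The median log2 fold change of the members was -0.03, with 3 of 6 lower in boldine rats, and over all genes it was 0.005. With library set as a covariate and no rat 6, log2 fold changes of the members ran from -0.21 for Grin2c to 0.09 for Grin3a. The 95% intervals of Grin1, Grin2a and Grin2b in that fit lay between 0.834 and 1.15 times the control level. They may be too narrow, because the sets were chosen from these same counts. Each interval included no change. The exact permutation tests gave p of 0.617 for Grin1, 0.695 for Grin2a and 0.435 for Grin2d, where the smallest p that 6 against 6 rats can give is 0.00216.

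**Figure D2:**
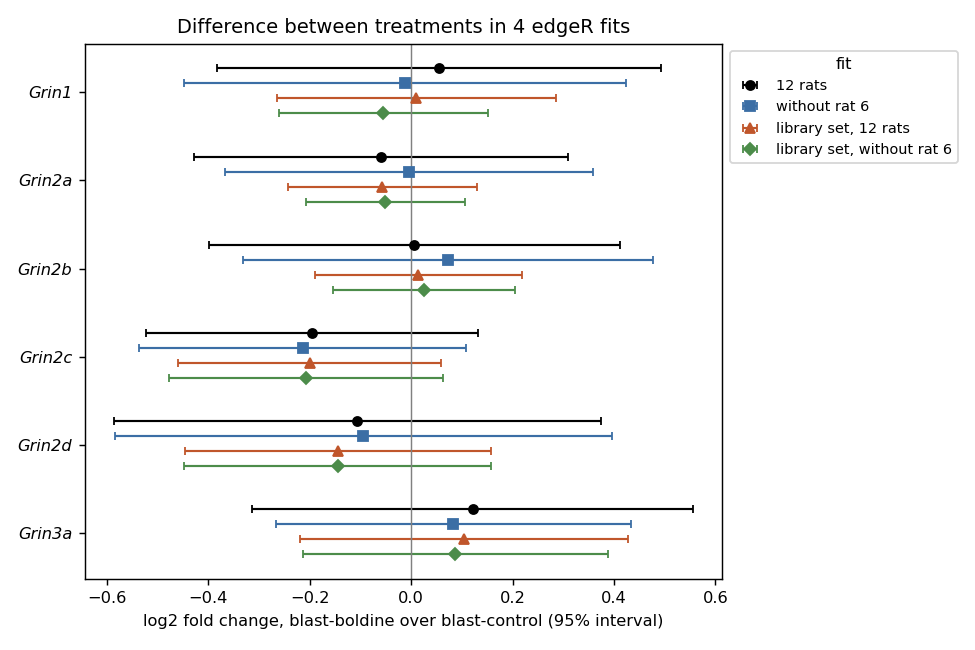
Log2 fold change of each subunit, blast-boldine over blast-control (horizontal axis), with its 95% interval, in 4 edgeR fits that differ in rat 6 and in the library set as a covariate. Every interval includes 0, and Grin2c lies lowest, at -0.21 to -0.20.

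To order the subunits, CPM were divided by the exonic length of each gene. In the 11 deeper libraries the median level was 113 CPM per kilobase for Grin1, 108 for Grin2a and 99.9 for Grin2b. Within each rat, the log2 ratio of Grin1 to Grin2a per kilobase was 0.10 ± 0.12 (SD, n = 11) and that of Grin2a to Grin2b 0.10 ± 0.10 (SD, n = 11). Each gene exceeded the next in 9 of 11 rats, by an amount near the spread between rats, and the order was not tested. Grin2c followed at a median of 21.9 CPM per kilobase, below Grin2b in all 11 rats and 4.56-fold lower by the medians. Grin3a had a median of 4.95 CPM per kilobase and Grin2d of 1.59 CPM per kilobase, and both steps held in all 11 rats. Grin3b lay at the floor with 0.0312 CPM per kilobase. Among 12529 genes ordered by this level, Grin1 ranked 592, Grin2a 640 and Grin2b 709, Grin2c ranked 4692, Grin3a 9304 and Grin2d 10957. In rat 6 the levels per kilobase were 148 CPM for Grin2b, 154 CPM for Grin2a and 87.5 CPM for Grin1, from 49, 46 and 24 counts.

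**Figure D3:**
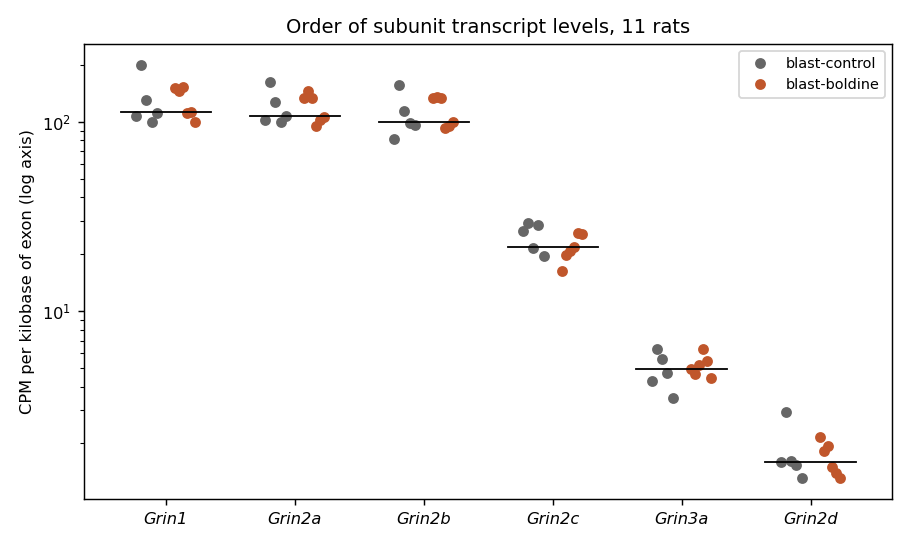
Subunit transcript levels in CPM per kilobase of exon (log axis) in the 11 rats other than rat 6, blast-control and blast-boldine side by side, with the median over all 11 as a line. Grin1, Grin2a and Grin2b lie together near 100 CPM per kilobase, and Grin2c, Grin3a and Grin2d follow at 21.9, 4.95 and 1.59.

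The make-up of the GluN2 transcripts was compared within each library, where the scaling between libraries plays no part. Per kilobase, Grin2a made up 46.2 ± 1.17% of the Grin2 counts in blast-boldine rats (SD, n = 6) and 46.8 ± 1.83% in blast-control rats without rat 6 (SD, n = 5). Grin2b made up 44.4 ± 1.77% and 42.4 ± 2.35%, and Grin2d 0.651 ± 0.0709% and 0.691 ± 0.104%. The share of Grin2c ran from 5.71 to 11.5% in boldine rats and from 8.13 to 12.5% in those controls. The ratio of Grin1 to summed Grin2 counts per kilobase was 0.499 ± 0.0389 in boldine rats and 0.502 ± 0.0479 in controls without rat 6. The ratio of Grin2b to Grin2a counts ranged from 1.03 to 1.12 in boldine rats and from 0.886 to 1.1 in controls. Rat 1 gave the lowest ratio, and the other controls lay between 0.998 and 1.1. The log2 ratio was 0.074 higher in boldine rats, which is 1.05-fold (exact permutation test, two-sided p = 0.169). Without rat 6 the log2 difference was 0.087 (exact permutation p = 0.128), and without rat 1 it was 0.034 (exact permutation p = 0.331), so that control decided much of the difference.

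**Figure D4:**
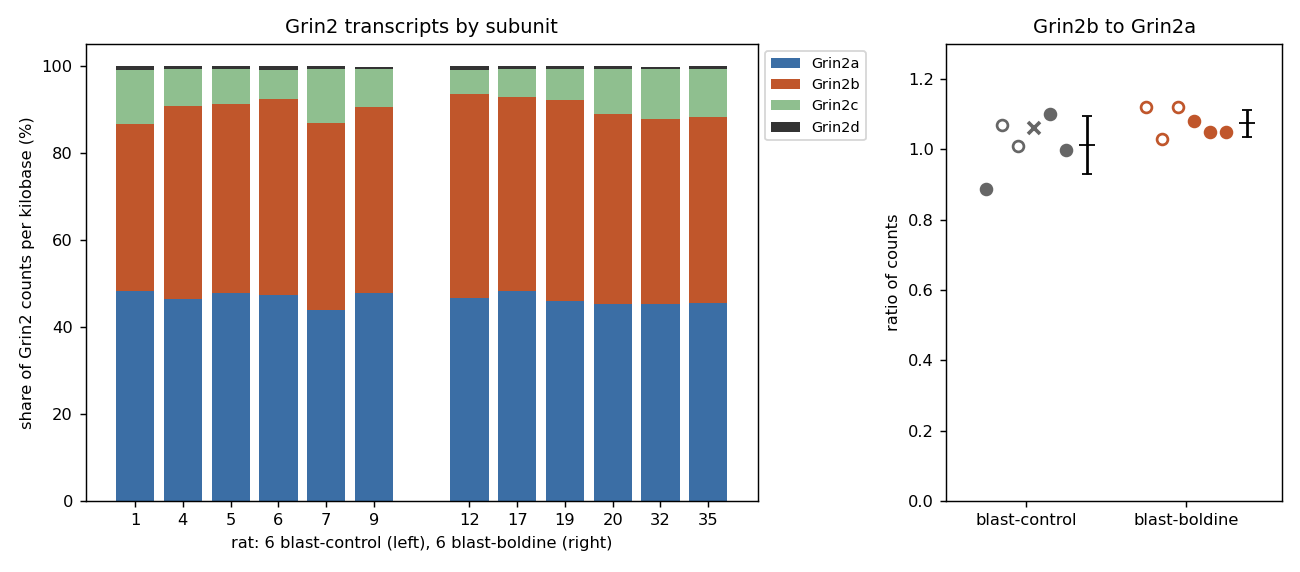
Left, share of Grin2 counts per kilobase held by each GluN2 subunit (stacked, in percent) in each rat. Right, ratio of Grin2b to Grin2a counts by group, with filled circles for library set A, open circles for set B, a cross for rat 6 and the mean ± SD without rat 6. The shares of Grin2a and Grin2b were farthest apart in control rat 1, at 48.3% and 38.4%, where the ratio was lowest, at 0.886.

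Levels of the subunits lay apart by library set among the blast-boldine rats, where the sets follow from the suffixes and the assumed order of rat numbers. Grin1 was 632 to 668 CPM in set B and 435 to 489 CPM in set A. Grin2a, Grin2b and Grin2d were also higher in each boldine rat of set B than in any of set A, by 1.38-fold, 1.42-fold and 1.42-fold. Grin2c went the other way, with 71.9 to 91.1 CPM in set B and 96.3 to 113 CPM in set A, a ratio of 0.785. Grin3a overlapped, at 20.5 to 22.7 CPM in set B and 19.5 to 27.7 CPM in set A. Thus 5 of 6 members separated the sets, but so did 71.8% of the 12529 genes, and 36.2% of genes were higher in set B. Beside this, the summed level of 4 neuronal markers over the 11 deeper libraries was 1920 to 2730 CPM in set A and 2580 to 2810 CPM in set B, which overlap. Of the 12 marker lists, 5 did not overlap between the sets. The controls were placed in the sets by these same counts, so a separation over the 11 libraries was partly built in. The share of all genes that separated over these libraries was not counted. In sets A and B, 3 endothelial markers summed to 58.0 to 85.5 CPM and 163 to 227 CPM. In the same order, 3 thalamic markers summed to 20.3 to 30.2 CPM and 47.9 to 66.5 CPM. That sum does not stand for each thalamic marker, because Prkcd was highest among the 11 deeper libraries in rat 1 of set A. The other 3 lists were higher in set A, with 5 microglial markers at 257 to 282 CPM and 113 to 182 CPM, and 2 markers of oligodendrocyte precursors at 237 to 270 CPM and 185 to 220 CPM. The list of 4 cerebellar markers, nearly all Etv1, summed to 184 to 206 CPM and 103 to 131 CPM. The part of these differences in the subunits' levels was not tested.

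Within the sets, the treatment groups were compared on the means of log2 CPM without rat 6. In set A, boldine rats differed from controls by 0.01 for Grin1, -0.04 for Grin2a, 0.05 for Grin2b, -0.02 for Grin2c and -0.09 for Grin2d. In set B, with 2 controls, the differences were -0.11, -0.05, 0.01, -0.41 and -0.14. The larger difference of Grin2c was that in set B, where values of 71.9, 87.0 and 91.1 CPM stood against 94.6 and 129 CPM in controls. The difference of Grin2c between sets did not pass a test of the interaction of treatment and set (unadjusted p = 0.138, adjusted p = 0.885 without rat 6, edgeR). Grin3a differed by 0.36 in set A and by -0.26 in set B. The interaction of treatment and set had an unadjusted p of 0.0396 for Grin3a with all rats and 0.0195 without rat 6, but adjusted p of 1.0 and 0.881 (edgeR), and it was the only member below 0.05. Of all genes, 4.30% and 5.64% had an unadjusted p below 0.05 in these tests. Permuted only within the sets with all rats, the exact permutation tests gave p of 0.20 for Grin2c, 0.865 for Grin2b and 0.30 for Grin3a. Without rat 6 the same tests of the treatment gave p of 0.18, 0.38 and 0.525.

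Once the mean of each set had been subtracted, the members' likeness over the 11 deeper libraries rested largely on control rat 4. Pearson's r of log2 CPM between Grin1 and Grin2d was 0.85, and without rat 4 it was 0.51. Between Grin1 and Grin2a it was 0.68 and 0.11, between Grin2a and Grin2b 0.68 and 0.43, and between Grin1 and Grin2b 0.59 and 0.19. Over the 6 rats of set A, r was 0.07 between Grin1 and Grin2d and -0.25 between Grin1 and Grin2a. Grin3a was at -0.19 with Grin2a, and without rat 4 at -0.76. The points share their library, and these are descriptions without a test. Among 10354 genes with at least 100 counts on average, those most like Grin1 were Sulf2, Ube2ql1 and Lhx2, each with r of 0.98. Zyx, Jph3 and Trmt2a were most like Grin2a (r from 0.91 to 0.92), and Rpn2, Sptan1 and Rgs8 most like Grin2b (r from 0.95 to 0.96). Trappc6a, Plod3 and Gpam were most like Grin2c (r from 0.92 to 0.95), and Ppif, Sfxn5 and Cacfd1 most like Grin2d (r from 0.96 to 0.98). For Grin3a these were Rnf121, Fem1a and Gpr89b, with r from 0.84 to 0.87. Without rat 4, r of the 18 named genes with their members ran from 0.78 for Trmt2a to 0.95 for Ppif. The genes were picked for a high r over libraries that include these same rats, so these values follow largely from the choice. No other member stood among the 3 genes most like any member.

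The genes around the receptor were taken from a list of 57 in groups by role, of which 53 were tested. None had an unadjusted p below 0.05 in edgeR with all rats, and their median log2 fold change was -0.01. In the group for synthesis and transport of the co-agonists glycine and D-serine, 7 of the 9 genes tested were lower in boldine rats. The median log2 fold change of this group was -0.04, against 0.005 over all genes. Its smallest p was that of Phgdh, which encodes the first enzyme of serine synthesis. Levels of Phgdh were 87.9 ± 20.8 CPM in boldine rats and 104 ± 18.3 CPM in controls (SD, n = 6 each), a log2 fold change of -0.26 (SE 0.18, unadjusted p = 0.175, edgeR). Of 22 genes tested for anchoring and transport, 14 were lower with all rats and 9 without rat 6, with medians of -0.01 and 0.01. Dlg4, which encodes the scaffold protein PSD-95, had the largest of these differences, at -0.32 (SE 0.22, unadjusted p = 0.167, edgeR), and without rat 6 it was -0.17. Ephb2, a receptor tyrosine kinase that associates with NMDA receptors, was at -0.17 (SE 0.12, unadjusted p = 0.178, edgeR). Among the 10 genes of the group for kinases and phosphatases, which also holds the anchoring protein gene Akap5, 5 were lower with all rats and 6 without rat 6. Of 9 genes of downstream signalling, 3 were lower with all rats and 5 without rat 6. With the library set as a covariate, 4 of them were lower with all rats and 7 without rat 6. Of the 3 genes tested for reelin and subunit regulation, 0 were lower with all rats and 1 without rat 6. On the higher side, the smallest p values were those of Vldlr, a reelin receptor, at 0.14, Rasgrf2, an exchange factor for Ras, at 0.19, and Lin7c, an adaptor for receptor transport, at 0.10 (unadjusted p = 0.246, 0.335 and 0.376, edgeR).

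With the library set as a covariate and without rat 6, 4 of the 53 genes had an unadjusted p below 0.05, all lower in boldine rats, or 7.55% beside 5.35% of all genes in that fit. Over all genes the lean was also downward, with 443 of the 670 genes below 0.05 lower in boldine rats and 227 higher. Of the scaffold genes, Shank3 was at -0.29 (SE 0.09, unadjusted p = 0.00821, edgeR), Shank1 at -0.36 (SE 0.14, unadjusted p = 0.0261) and Dlgap4 at -0.17 (SE 0.08, unadjusted p = 0.0462). Ptpn5, which encodes the phosphatase STEP that dephosphorylates GluN2B, was at -0.16 (SE 0.07, unadjusted p = 0.027, edgeR). All 4 had an adjusted p of 0.898 by edgeR's quasi-likelihood test and were named after this fit was seen. The sets were chosen from these same counts, so these SEs and p values may be too small. With all rats, library set assignment 1, the one used, gave 3 of the 53 genes with an unadjusted p below 0.05 (edgeR). The other allowed assignments, 2, 3 and 4, gave 0. Without the covariate, Shank3 was at -0.16 (SE 0.41) and Shank1 at -0.09 (SE 0.55), and their levels ran from 143 to 634 CPM and from 256 to 1970 CPM over the 11 deeper libraries. In the same fit with the covariate and without rat 6, 35 of the 53 genes were lower, with a median of -0.06, against -0.008 for all genes.

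**Figure D5:**
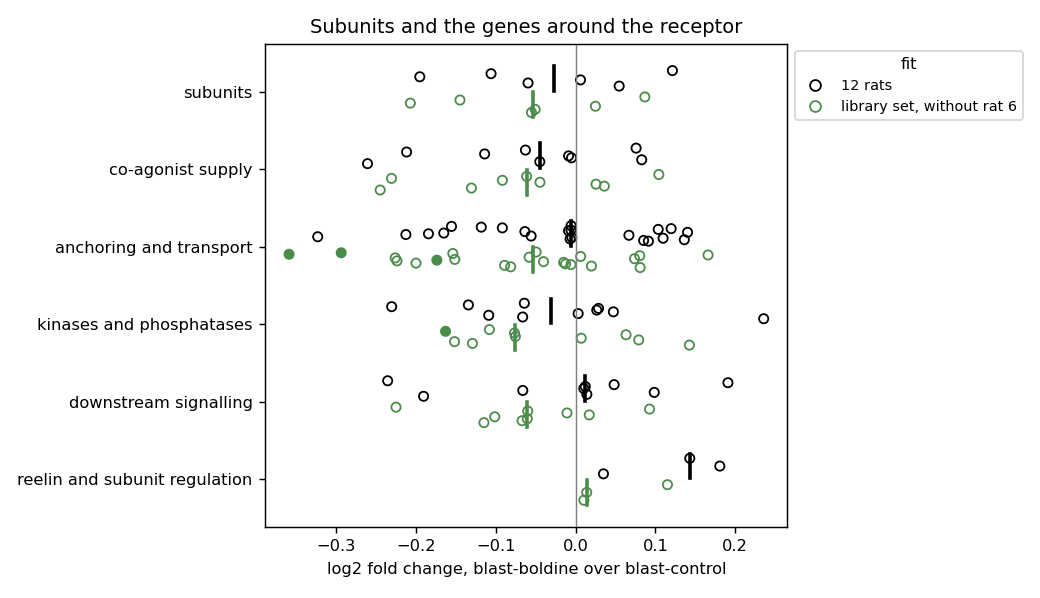
Log2 fold change, blast-boldine over blast-control (horizontal axis), of the subunits and of 5 groups of genes around the receptor, in the edgeR fit of all 12 rats (black) and in the fit with the library set as a covariate and without rat 6 (green). Circles are genes, filled where the unadjusted p is below 0.05, and vertical bars are medians. No circle is filled in the fit of 12 rats, and 4 are filled in the other, all below 0.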

How the data were processed

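Stranded total RNA libraries, 1 per rat, were depleted of ribosomal RNA by the authors. They removed PCR duplicates and trimmed reads with HTStream, aligned them with STAR 2.7.11b to mRatBN7.2 (rn7) and counted reads on RefSeq exons, by gene name and strand, with featureCounts (Subread 2.0.1, versions per the submitters' processing notes). They deposited raw counts for 17494 genes, not normalized, beside each gene's exonic length in bases. Removing duplicates can compress the counts of abundant genes, and reads beyond annotated exons are not counted.

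Groups were taken from the labels, doses and times from the study's methods, and rat numbers and suffixes from the library names. Each rat is 1 replicate. Counts were tested with edgeR 4.0.16 in R 4.3.3 (TMM, filterByExpr with a minimum of 10 counts, glmQLFit and glmQLFTest, treatment as the only term, two-sided p, Benjamini-Hochberg adjustment over all genes tested). The SE of a log2 fold change is its size divided by the root of the F statistic. Log2 CPM used a prior count of 2. Exact permutation tests compared group means of log2 CPM and of log2 Grin2b to Grin2a count ratios with a pseudocount of 0.5. The alternatives were DESeq2 1.42.0 (the authors used another version of that tool), limma-voom (limma 3.58.1), other size factors, no filter, library sets as a covariate, a length offset over 100 bins and leaving out each rat. The edgeR script was tested on simulated data. The remaining steps used Python 3.11.15. Totals per library and the floor of 3 counts (at most 0.307 CPM outside rat 6) cover counting error only.

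The members and lists were chosen with earlier results of these data known. Named are all members and Grin3b, the 3 higher and 3 lower pathway genes with the smallest p, pathway genes with an unadjusted p below 0.05, markers beside a result, and the 3 genes most like each member. Promoter windows are from RefSeq (GRCr8), and the lists held 3 symbols not found in the table (Kif17, Lrp8 and Rora).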

Additional observations from a re-analysis of the deposited data

Results flagged for a closer look

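Grin2d in control rat 4 was 15.5 CPM, far above the other 4 deeper control libraries at 6.92 to 8.50 CPM. It was the only one of 27 groups of values examined in which a single rat stood apart by Dixon's test at the 95% level, and chance alone marks about 1 in 20. Rat 4 also had the highest Grin1, Grin2a and Grin2b of all 12 rats.

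For Grin3a the difference between treatments had opposite signs in the library sets. The interaction of treatment and set, B minus A, was -0.61 on the log2 scale with all rats and -0.62 without rat 6 (unadjusted p = 0.0396 and 0.0195, adjusted p = 1.0 and 0.881, edgeR), so it failed the correction over all genes. In set A the boldine rats had 27.7, 23.9 and 19.5 CPM and the controls 18.8, 20.8 and 15.3 CPM. In set B without rat 6 they had 21.7, 20.5 and 22.7 CPM and the controls 27.7 and 24.4 CPM.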

How the results depend on the processing

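No member reached an adjusted or unadjusted p of 0.05 in any of 25 other settings of the fit, 12 of which left out 1 rat each. Directions of Grin2c and Grin3a held in all 25, with log2 fold changes from -0.26 to -0.13 and from 0.03 to 0.24. Those of Grin1, Grin2a, Grin2b and Grin2d did not, and the cause was not tested. Grin2b turned to -0.01 with RLE size factors, with the length offset and with library set assignments 2 and 3 as a covariate, and to -0.03 with upper quartile scaling. Grin1 turned to -0.06 with the library set as a covariate and without rat 6, to -0.01 with DESeq2 without rat 6 and to -0.05 with DESeq2, the library set and no rat 6, a setting chosen after seeing the data. Leaving out 1 rat gave log2 fold changes from -0.01 to 0.25 for Grin1, -0.13 to 0.04 for Grin2a, -0.05 to 0.12 for Grin2b and -0.20 to 0.13 for Grin2d, where control rat 4 alone turned Grin2d. Differences in mean log2 CPM, compared by exact permutation, ranged likewise from -0.12 to 0.02 for Grin2a and from -0.08 to 0.11 for Grin2b. For Grin3a they ranged from 0.10 without rat 6 to 1.68 without rat 4, where rat 6 at 0 counts remained and the exact permutation p was 0.0476. The Grin2b to Grin2a log2 ratio difference ranged from 0.034 to 0.095 and passed no test.

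Of the pathway list, 3 of 53 genes (5.66%) had an unadjusted p below 0.05 with the library set as a covariate (Phgdh, Dlgap4 and Shank3). With the set and no rat 6 there were 4 of 53 (7.55%), against 3.85% and 5.35% of all genes in these fits. By DESeq2 there was 1 of 55 without rat 6 (1.82%, Ptpn5) and 4 of 55 with the set and no rat 6 (7.27%). The reported fit, the fits with library set assignments 2, 3 and 4 as a covariate and each fit that left out 1 rat gave 0. Over all genes these counts were 132 of 12325 by edgeR, 85 of 15690 by DESeq2 and 254 of 15690 without the filter. With the set they were 474 of 12325, and 670 of 12529 without rat 6. By DESeq2 without rat 6 they were 279 of 15690, and 736 of 15689 with the set as well. Leaving out 1 rat gave 85 to 214. The set covariate lowered the common dispersion from 0.104 to 0.0253. No paired analysis was possible because the groups share no rat numbers. The order of levels held with unscaled library totals. The set assignment rests on an assumed order of rat numbers and partly on the counts, depth in rat 6 limits Grin2c, Grin2d and Grin3a, and intervals with 6 rats a group leave changes of up to 1.33-fold in Grin2b open to the reported fit.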
